A study of Mus musculus with 2 samples.

Results

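The NF-kappaB subunits and feedback genes are 10 genes, taken by their symbols from the 54680 loci of the deposited expression table. The 5 subunit genes were Nfkb1, Nfkb2, Rela, Relb and Rel. The other 5 were Nfkbia, Nfkbie and Nfkbiz of the IkappaB family, the ubiquitin-editing enzyme Tnfaip3 and the ubiquitin ligase Birc3. All 10 were found, each on 1 locus, and 9 of them reached 1 FPKM in at least 1 library, the level above which genes were counted. Birc3 stayed below it. FPKM divides the fragment count by gene length and by depth, here a common depth for both libraries. Comparisons of level between genes therefore rest on the length given for each gene. RNA was sequenced from CT26 cells, a mouse colon cancer line. The knockdown cells (CT26shSetdb1) received lentivirus with a short hairpin RNA against Setdb1, a histone H3 lysine methyltransferase gene. The control cells (CT26shCtrl), given as wild type in genotype, received lentivirus with the empty knockdown vector. Both were grown for 6 days, by which time the submitters described a changed phenotype in the knockdown cells, which they call differentiated. Each group had 1 library, so no difference below has a replicate check, and no p-value is given. In a bulk library, a change in the number of cells that express a gene and a change in RNA per cell cannot be told apart.

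NF-kappaB is a family of dimeric transcription factors that cells hold inactive in the cytoplasm. Inhibitors of the IkappaB family bind the dimers, and inflammatory signals such as tumour necrosis factor trigger destruction of these inhibitors through the IkappaB kinase complex. The freed dimers switch on genes of inflammation and survival, among them the genes of their own inhibitors, which closes a negative feedback loop. In the canonical branch the main dimers contain the Rela protein. In the non-canonical branch, the precursor protein encoded by Nfkb2 is processed and acts with Relb. These are steps of protein and location, whereas the values below are levels of RNA.

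The promoters of members on both sides of the comparison are shown first, because NF-kappaB is known to act on its own genes through a short DNA element, the kappaB site. RefSeq windows (build GRCm38.p6) were found for 7 of the 10 genes, 10 windows in all. The 250 bases before the start were searched on both strands for the 10-base kappaB consensus. A match lay in 7 of the 10 windows, belonging to 5 of the 7 genes (Nfkbia, Nfkbie, Nfkb2, Tnfaip3 and Rel), and in 7.25% of all 32851 windows of this length. The windows of Rela and Birc3, and the second window of Tnfaip3, held none. The core of the interferon-stimulated response element, which is GAAA, any 2 bases and GAAA again (TTTC, any 2 bases and TTTC on the other strand), was in 0 of the 10 windows and in 2.98% of all windows. Such matches are letters in a window and do not show that a factor was bound. The windows below are those of Nfkbia (chr12:55492648-55492897, minus strand), Nfkbie (chr17:45555450-45555699, plus strand), Nfkb2 (the first of its 3 starts, chr19:46304487-46304736, plus strand) and Rel (chr11:23770971-23771219, minus strand). Each is written 5′ to 3′ and ends next to the transcribed part, with kappaB matches in capitals.
Nfkbia: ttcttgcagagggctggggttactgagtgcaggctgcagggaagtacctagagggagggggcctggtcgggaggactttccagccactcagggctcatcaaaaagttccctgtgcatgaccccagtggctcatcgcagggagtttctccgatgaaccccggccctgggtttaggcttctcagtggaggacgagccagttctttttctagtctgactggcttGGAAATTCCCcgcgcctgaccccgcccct
Nfkbie: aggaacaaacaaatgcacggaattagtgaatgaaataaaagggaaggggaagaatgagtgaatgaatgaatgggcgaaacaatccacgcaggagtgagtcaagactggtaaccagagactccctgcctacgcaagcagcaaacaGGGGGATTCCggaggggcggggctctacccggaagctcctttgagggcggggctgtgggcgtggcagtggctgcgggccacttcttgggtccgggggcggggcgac
Nfkb2: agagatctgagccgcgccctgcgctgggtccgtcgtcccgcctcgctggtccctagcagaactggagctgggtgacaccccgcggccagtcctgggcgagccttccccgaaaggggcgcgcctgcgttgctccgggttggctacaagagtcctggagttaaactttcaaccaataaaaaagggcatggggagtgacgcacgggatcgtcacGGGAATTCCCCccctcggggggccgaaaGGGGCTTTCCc
Rel: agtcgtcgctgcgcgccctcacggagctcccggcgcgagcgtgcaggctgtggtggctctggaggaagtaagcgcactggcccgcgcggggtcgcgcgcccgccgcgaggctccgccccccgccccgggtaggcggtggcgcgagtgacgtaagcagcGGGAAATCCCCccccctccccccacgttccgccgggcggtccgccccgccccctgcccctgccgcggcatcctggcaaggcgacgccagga
The Nfkbia match, GGAAATTCCC, began 29 bases before the start, and the Nfkbie match, GGGGGATTCC, began 106 bases before it. The Nfkb2 window held overlapping matches that began 39 and 38 bases before the start and another that began 11 bases before it. The capitals in Rel are 2 overlapping matches that began 92 and 91 bases before the RefSeq start. The base next to that start, which lies inside the gene of the deposited table, is left off the printed Rel window. The first 3 of these genes had more reads in the knockdown library, and Rel had fewer, as given below.

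The knockdown library held 19045830 reads and the control library 18421604, recovered as whole numbers from the FPKM values. Setdb1 itself, the check of the labels, was at 10.4 FPKM in the control and 2.47 FPKM in the knockdown library, 23.7% of the control level. Setdb1 shares 75 bases with Cers2 on the opposite strand, which had 12233 reads in the control and 8639 in the knockdown library. The part of that overlap in the Setdb1 value was not tested. FPKM reached 1 in either library for 10671 genes, the genes tested. Of these, 727 (6.81%) had a level at least 2-fold above the control in the knockdown library, and 518 (4.85%) had one at least 2-fold below it. These shares were taken on log2 of (FPKM + 1), where genes of low level show less than their full change. Read ratios below are relative to each library's own total, with exact binomial 95% intervals that cover counting error only, since reads copied by PCR are not independent molecules. Of 7 epithelial marker genes, Krt18 reached 1 FPKM in both libraries and Krt19 only in the knockdown library (1 read in the control, 53 in the knockdown library). Epcam and Cdh1, which define epithelial cells, had 0 reads in both libraries. The summed epithelial level was 38.1 FPKM in the control and 92.3 FPKM in the knockdown library, of which Krt18 was 37.7 and 90.0 FPKM. Of 4 fibroblast markers, 3 (Col1a1, Col1a2 and Pdgfrb) reached 1 FPKM, with a summed level of 185 FPKM in the control and 133 FPKM in the knockdown library. Of 5 leukocyte markers only Cd68, a lysosomal membrane gene, reached 1 FPKM, at 10.4 FPKM in the control and 100.2 FPKM in the knockdown library. Adgre1, Itgam and Cd3e had 0 reads in both, and Ptprc, the common leukocyte antigen, had 0 and 4. The 3 endothelial markers had 0 reads in both libraries. The part of these marker differences in the results below was not tested.

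Among the 9 members at 1 FPKM or more, 7 were higher and 2 lower in the knockdown library (49.6% of all genes tested were higher). Nfkbie and Nfkbia, both encoding cytoplasmic inhibitors, were the 2 that were at least 2-fold higher (22.2% of the 9, against 6.81% of all genes tested), and 0 were at least 2-fold lower on this scale (4.85% of all genes tested). The median log2 ratio of the 9 was 0.69, beside -0.00039 over all genes tested. Of the 9, Rel reached 1 FPKM only in the control. The subunits did not share a direction. Nfkb2 and Relb, the non-canonical pair, were higher, and Rela and Rel were lower.

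**Figure D1:**
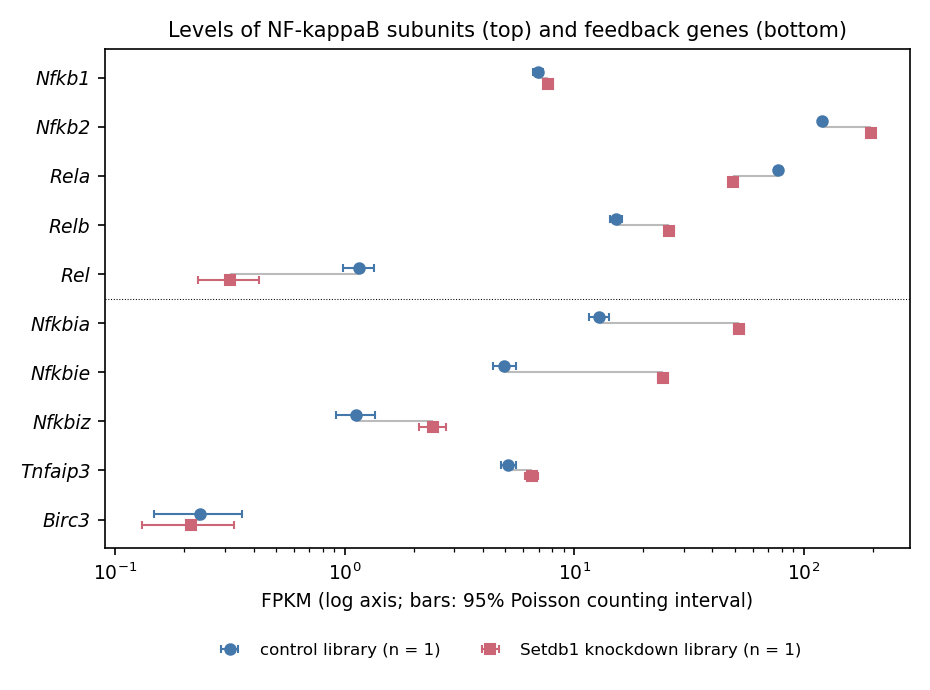
FPKM of each gene in the control library (circles) and the Setdb1 knockdown library (squares) on a log axis, with 95% Poisson counting intervals and a grey line joining the libraries. Nfkbia and Nfkbie lie far to the right in the knockdown library, Rela and Rel lie to the left, and the intervals of Birc3 overlap.

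Nfkb2 was the most abundant member in both libraries. It lies on the plus strand of chromosome 19, from 46304737 to 46312090 in GRCm38. The control library held 119.6 FPKM (7366 reads) of it and the knockdown library 197 FPKM (12142 reads). Its read ratio was 1.59 (1.55 to 1.64), and on log2 of (FPKM + 1) the difference was 0.72. The gene shares 4 bases with Psd on the opposite strand, which had 1641 and 1020 reads, and whether reads were counted by strand is not given in the sources used here. Relb, on chromosome 7 from 19606217 to 19629438 (minus strand), had 1104 reads (15.2 FPKM) in the control and 1888 reads (25.9 FPKM) in the knockdown library, with a read ratio of 1.65 (1.53 to 1.78). The Nfkb2 and Relb ratios were thus close in size. The number of Nfkb2 reads per Relb read changed by a factor of 0.964, with an interval of 0.889 to 1.04 that includes no change.

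Rela, which encodes the transactivating subunit of the canonical dimer, was lower. The gene (chromosome 19, 5637483 to 5648130, plus strand) was at 77.3 FPKM (3930 reads) in the control and 49.3 FPKM (2510 reads) in the knockdown library, 63.9% of the control level. Its read ratio was 0.618 (0.587 to 0.650). Rel, the subunit best known from lymphoid cells, was scarce in both (chromosome 11, 23736847 to 23770970). It had 161 reads (1.15 FPKM) in the control and 44 reads (0.315 FPKM) in the knockdown library. The Rel read ratio of 0.264 (0.185 to 0.371) was the lowest of the 10, while its log2 ratio on FPKM + 1 was -0.71 because the gene is near the pseudocount. Nfkb1, which encodes the partner of Rela, differed little. It was at 6.91 FPKM in the control and 7.71 FPKM in the knockdown library (chromosome 3, 135584655 to 135691547), with a read ratio of 1.08 (1.01 to 1.16).

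Added over the 5 subunit genes, the level was 220.1 FPKM in the control and 280.4 FPKM in the knockdown library. Nfkb2 made up 54.3% of this sum in the control and 70.3% in the knockdown library, and Rela 35.1% and 17.6%. Relb went from 6.89% to 9.25%, and Nfkb1 from 3.14% to 2.75%. These shares depend on the gene lengths used, 12061 bases for Nfkb1 and 3885 for Relb. By reads, Nfkb1 was above Relb in the control (1562 against 1104). The quotient of Nfkb2 to Rela levels, which does not depend on how the libraries are scaled, was 1.55 in the control and 3.99 in the knockdown library, a change of 2.58-fold (2.43 to 2.74). For Relb over Rela the quotient was 0.196 and 0.526, a change of 2.68-fold (2.45 to 2.93). The RNA of the non-canonical pair was therefore higher relative to Rela in the knockdown library by more than counting error.

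**Figure D2:**
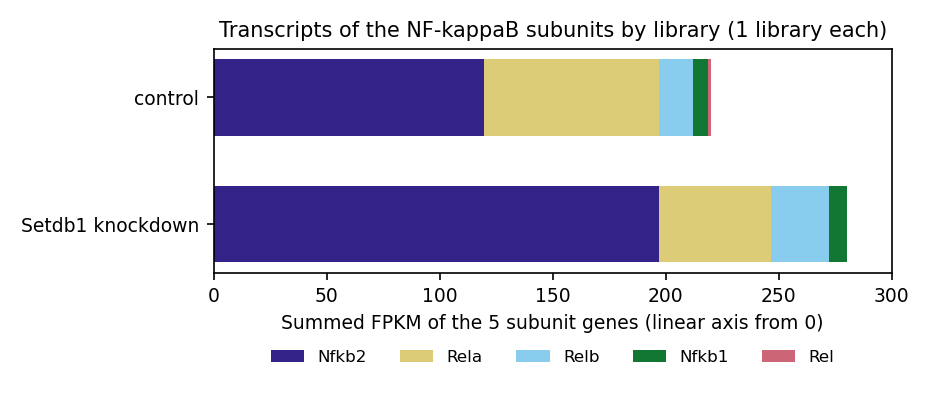
Summed FPKM of the 5 subunit genes, stacked by gene, in the control library (220.1 FPKM) and the knockdown library (280.4 FPKM), on a linear axis from 0. The Nfkb2 segment is wider and the Rela segment narrower in the knockdown library, and Rel is barely visible in either.

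The genes of the cytoplasmic inhibitors, Nfkbia and Nfkbie, had the highest ratios of the members. Nfkbia encodes an IkappaB protein that is rapidly resynthesised after NF-kappaB activation and ends the response. Nfkbia (chromosome 12, 55489410 to 55492647, minus strand) was at 12.8 FPKM (387 reads) in the control and 52.3 FPKM (1577 reads) in the knockdown library. Its read ratio was 3.94 (3.52 to 4.42). Its log2 ratio was 1.95, which ranked 130 from the highest among the 10671 genes. Nfkbie encodes a related cytoplasmic inhibitor and lies on chromosome 17, from 45555703 to 45563169. It had 283 reads (4.96 FPKM) in the control and 1389 reads (24.4 FPKM) in the knockdown library, with a log2 ratio of 2.09, a read ratio of 4.75 (4.17 to 5.41) and rank 99. The change of the quotient of Nfkbie to Nfkbia was 1.20-fold, with an interval of 1.01 to 1.43 that narrowly excludes no change. The Nfkbie ratio was thus slightly above that of Nfkbia.

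Per unit of Rela RNA, the inhibitors differed more than alone, since Rela was lower. The quotient of Nfkbia to Rela levels was 0.166 in the control and 1.06 in the knockdown library, a change of 6.38-fold (5.64 to 7.23). That of Nfkbie to Rela was 0.0642 and 0.494, a change of 7.68-fold (6.69 to 8.85). Against Nfkb2, the most abundant subunit RNA, the Nfkbia quotient changed 2.47-fold (2.20 to 2.78).

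The remaining feedback genes differed less. Nfkbiz encodes a nuclear IkappaB protein that works with NF-kappaB on secondary target genes (chromosome 16, 55811375 to 55838899). It had 105 reads (1.12 FPKM) in the control and 227 reads (2.42 FPKM) in the knockdown library, a read ratio of 2.09 (1.65 to 2.66) but a log2 ratio of 0.69 on FPKM + 1. Tnfaip3 encodes an enzyme that removes activating ubiquitin chains from signalling proteins and is a classic NF-kappaB feedback gene (chromosome 10, 19000910 to 19015657). It was at 5.15 FPKM (697 reads) in the control and 6.53 FPKM (884 reads) in the knockdown library, a read ratio of 1.23 (1.11 to 1.36). Relative to Nfkbia, Tnfaip3 was lower in the knockdown library, its quotient changing by a factor of 0.311 (0.267 to 0.362). Birc3, a ubiquitin ligase of the tumour necrosis factor receptor complex, had 22 reads in the control and 20 in the knockdown library (chromosome 9, 7848699 to 7873186). Its read ratio of 0.879 had an interval of 0.455 to 1.69, so a difference was not detectable at this depth.

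**Figure D3:**
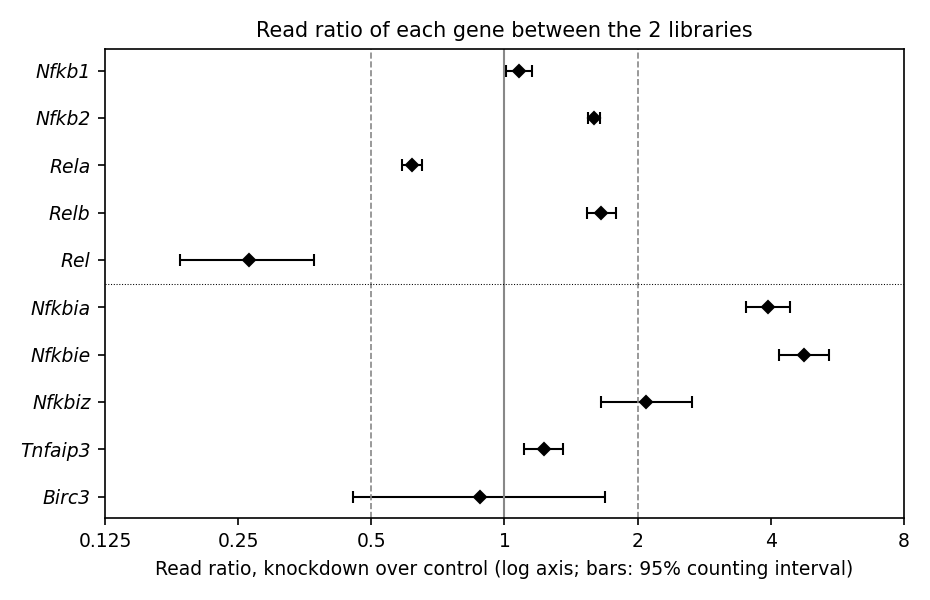
Read ratio of each gene, knockdown over control and relative to each library's total, on a log axis with exact binomial 95% intervals. The dashed lines mark 2-fold in either direction. Nfkbia (3.94) and Nfkbie (4.75) lie beyond 2-fold with their whole interval, as does Rel (0.264) on the other side, and the interval of Birc3 spans 1.

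The order of levels also differed between the libraries. In the control the order from the highest was Nfkb2, Rela, Relb, Nfkbia, Nfkb1, Tnfaip3, Nfkbie, Rel, Nfkbiz and Birc3. Tnfaip3 (5.15 FPKM, Poisson interval 4.77 to 5.55) and Nfkbie (4.96 FPKM, 4.40 to 5.57) did not differ there beyond counting error, nor did Rel (0.980 to 1.34) and Nfkbiz (0.914 to 1.35). In the knockdown library the order was Nfkb2, Nfkbia, Rela, Relb, Nfkbie, Nfkb1, Tnfaip3, Nfkbiz, Rel and Birc3. Here the intervals of Nfkbia (49.7 to 54.9 FPKM) and Rela (47.4 to 51.3 FPKM) overlapped, as did those of Relb (24.8 to 27.1) and Nfkbie (23.1 to 25.7), and of Rel (0.229 to 0.422) and Birc3 (0.130 to 0.329). Nfkbia thus moved from rank 4 to rank 2, level with Rela within counting error, and Nfkbie from rank 7 to rank 5.

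Upstream of these genes, the receptors that signal to NF-kappaB showed no 2-fold difference. Of 11 receptor genes, 6 reached 1 FPKM, 3 of them higher and 3 lower. Past 2-fold in either direction were 0 of the 6, against 11.7% of all genes tested. The receptor median log2 ratio of 0.03 fell below 0 under several settings, each changed alone. These were upper-quartile scaling, scaling by total reads, no filter, and a smaller pseudocount. With a filter at 5 FPKM the median was 0.37. The receptors of tumour necrosis factor had the 2 highest ratios, Tnfrsf1b with 2286 reads in the control and 3550 in the knockdown library (log2 ratio 0.62) and Tnfrsf1a with 3421 and 4876 (0.51). The 2 lowest were those of Ltbr, the lymphotoxin receptor of the non-canonical branch, at 95.6 FPKM in the control and 74.2 FPKM in the knockdown library (-0.36), and Il1r1, a receptor of interleukin-1, with 429 and 280 reads (-0.46).

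Adaptors and kinases that carry the signal were mixed. Of 21 genes, 20 reached 1 FPKM, with 11 higher and 9 lower and a median log2 ratio of 0.08, which was -0.0339 with a filter at 5 FPKM. At least 2-fold higher were 4 (20.0%, against 6.81% of all genes tested), and 1 (5.00%, against 4.85%) was lower by as much. Traf5, an adaptor of tumour necrosis factor receptors, had the highest ratio at 1.38, from 48 to 262 reads, and was the 1 gene of the list that reached 1 FPKM only in the knockdown library. It shares 631 bases with the pseudogene Gstp-ps on the same strand, which had 851 and 641 reads. Rnf31, the catalytic subunit of the linear ubiquitin ligase, followed at 1.27, from 9.22 to 23.7 FPKM. Its annotation shares 123 bases on the same strand with Irf9, an interferon-stimulated gene with 640 reads in the control and 2625 in the knockdown library, and the part of that overlap in the Rnf31 value was not tested. The lowest were Irak1, a kinase below the interleukin-1 and Toll-like receptors, at 30.9 FPKM in the control and 18.7 FPKM in the knockdown library (-0.69), and Tab2, an adaptor of the kinase Map3k7, with 1316 and 552 reads (-1.10).

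Other IkappaB proteins and negative regulators were also mixed. All 13 genes reached 1 FPKM, 6 higher and 7 lower. At least 2-fold higher were 2 (15.4%, against 6.81% of all genes tested), and 0 were lower by as much (4.85% of all genes tested). The median log2 ratio of the 13 was -0.05, which was 0.43 with a filter at 5 FPKM. Bcl3, a nuclear IkappaB protein, had 27 reads in the control and 195 in the knockdown library (1.72) and was 1 of 2 genes of the list that reached 1 FPKM only there. Zc3h12a, an RNase that degrades inflammatory messenger RNAs, had 127 and 474 (1.54). Rnf11 (-0.41) and Itch (-0.85), which encode partners of Tnfaip3, had the lowest ratios, Itch with 472 reads in the control and 182 in the knockdown library.

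Whether NF-kappaB target genes differed along with the interferon genes was asked with 3 further lists. Of 29 NF-kappaB target genes outside the members, 14 reached 1 FPKM, 8 higher and 6 lower. At least 2-fold higher were 6 (42.9%, against 6.81% of all genes tested) and at least 2-fold lower were 2 (14.3%, against 4.85%), and their median log2 ratio was 0.07, or 0.77 with a filter at 5 FPKM. The 14 targets that reached 1 FPKM therefore spread to both sides. Of the 14, 3 reached 1 FPKM only in the knockdown library and 1 only in the control, so the level required for counting itself favoured a difference for them. Cxcl1, a neutrophil chemokine, had 18 reads in the control and 803 in the knockdown library (log2 ratio 3.98). Ier3, an early response gene of cell survival, was at 68.2 FPKM in the control and 512 FPKM in the knockdown library (2.89). At the other end, Csf1, the macrophage colony-stimulating factor, was at 158.7 FPKM in the control and 43.6 FPKM in the knockdown library (-1.84), and Saa3, an acute phase gene, had 59 and 4 reads (-1.03). The 15 targets below 1 FPKM had 22 reads in the control and 130 in the knockdown library, and 5 of them, which include Tnf and Il1b, had 0 reads in both, which allows up to 3 reads in each library.

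Of 8 genes known to respond to both NF-kappaB and interferon signalling, 7 reached 1 FPKM, 6 higher and 1 lower, 4 (57.1%) at least 2-fold higher and a median log2 ratio of 1.39. The chemokine genes Ccl5 (14 reads in the control, 402 in the knockdown library, log2 ratio 3.72) and Cxcl10 (15 and 493 reads, 3.23) were highest, and 3 of the 7 reached 1 FPKM only in the knockdown library. The transcription factor gene Irf1 was at 9.84 FPKM in the control and 19.3 FPKM in the knockdown library (0.91), and the checkpoint ligand gene Cd274 was the 1 that was lower, with 91 and 49 reads (-0.44).

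Interferon-stimulated genes differed in 1 direction. All 30 listed genes reached 1 FPKM and all 30 were higher in the knockdown library, with a median log2 ratio of 2.11. At least 2-fold higher were 26 (86.7%, against 6.81% of all genes tested). Of the 30, 9 reached 1 FPKM only in the knockdown library. The ratios ran from 0.04 for Ifit2 (95 and 100 reads) and 0.71 for Ifih1, an RNA sensor, to 3.67 for Oasl2 (490 and 7646 reads) and 4.91 for Irf7. The Ifit2 read ratio of 1.02 had an interval of 0.761 to 1.36, so a difference of Ifit2 was not detectable at this depth. Over all genes tested, 6.81% were at least 2-fold higher. Side by side, this share was 22.2% among the subunits and feedback genes, 42.9% among NF-kappaB targets, 57.1% among genes of both pathways and 86.7% among interferon-stimulated genes. The level required for counting favoured the last 3 of these shares, since 3 of the 14, 3 of the 7 and 9 of the 30 genes met it only in the knockdown library, against 0 of the 9. The lists were also chosen with earlier results of these data known, so their shares are descriptions of chosen genes. With 1 library per group, the difference between these lists was not tested. Nfkbia (1.95) and Nfkbie (2.09) had log2 ratios near the interferon-stimulated median of 2.11, but below it where that median was higher, at 2.85 with a pseudocount of 0.1 (2.02 for Nfkbia and 2.27 for Nfkbie) and 2.81 with a filter at 5 FPKM. The other 7 members at 1 FPKM or more lay between -0.71 and 0.74.

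**Figure D4:**
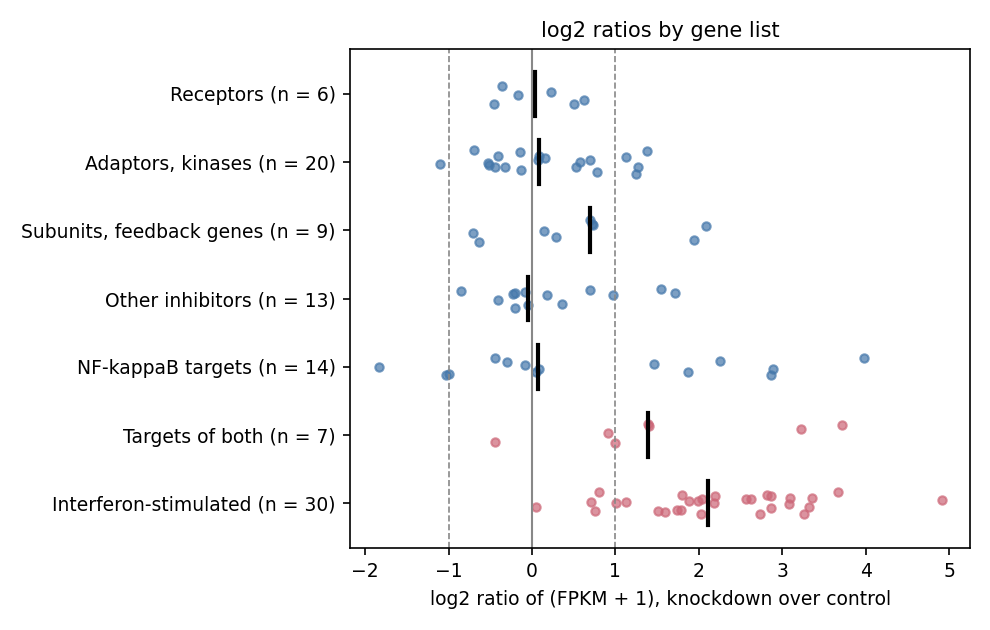
log2 ratio of (FPKM + 1), knockdown over control, for every gene at 1 FPKM or more in 7 gene lists, in red for the lists with interferon-responsive genes and blue for the others, with the median of each list as a black bar and dashed lines at 2-fold. All 30 interferon-stimulated genes lie above 0, while NF-kappaB targets spread from -1.84 to 3.98 around a median of 0.07 (0.77 with a filter at 5 FPKM).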

How the data were processed

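RNA was sequenced from 1 library of Setdb1 knockdown CT26 cells and 1 control library, matched to columns by library name. The authors deposited FPKM values. CASAVA, HISAT2 and featureCounts (1.5.0-p3) with build GRCm38 are named, without roles, per the submitters' processing notes. The annotation and the strand setting are not given in the sources used here. FPKM times gene length came out as whole steps for 100% of values above 0 (tolerance 0.01), with the same depth of 18731117 reads for both libraries, so reads were recovered and the main ratios carry the 1.03 ratio of the read totals.

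From these, log2 ratios of (FPKM + 1) were computed, and genes that reached 1 FPKM in either library entered counts. Read ratios have exact binomial intervals, levels exact Poisson intervals and quotients of genes exact conditional odds ratio intervals, all at 95% and for counting error only. Calculations were tested on simulated data. A leukocyte marker of the planned list is not reported here. The named genes are the 10 members, Setdb1 and, of each list, the 2 highest and 2 lowest ratios. Genes outside this rule are markers, overlapping genes or genes picked with their values in view, where the text says so. Members and lists were chosen with earlier results of these data known. Alternatives were a pseudocount of 0.1, 3 scalings, no filter, a filter at 5 FPKM and a 1.5-fold threshold. The tools were scipy 1.17.1, pandas 2.3.3, numpy 2.4.6 and matplotlib 3.10.9 in Python 3.11.15.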

Additional observations from a re-analysis of the deposited data

How the results depend on the processing

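Of 40 alternative values of the 10 members, 36 stayed within counting error, 4 moved and 0 changed direction. Those that moved were Nfkb2 under upper-quartile and total-read scaling, and Rel (-1.59) and Nfkbiz (1.05) with a pseudocount of 0.1. The scaling factors were 0.998, 1.04 and 1.03, small against the counting intervals of most members, so the scalings could hardly move them. With a pseudocount of 0.1 the Setdb1 log2 ratio was -2.04, the interferon-stimulated median 2.85 and the receptor median -0.0273, members at least 2-fold lower numbered 1 (Rel) in place of 0, those at least 2-fold higher 3 (with Nfkbiz) in place of 2, and all genes at least 2-fold higher and lower numbered 1134 and 870. A smaller pseudocount widens the ratios of low genes by construction. The receptor median was also below 0 under upper-quartile scaling (-0.0173), scaling by total reads (-0.00693) and no filter (-0.0794). Without a filter the median of the members was 0.49, since Birc3 entered. With the filter at 5 FPKM, which leaves fewer genes, medians were 0.37 for receptors, -0.0339 for adaptors and kinases, 0.43 for other inhibitors, 0.77 for NF-kappaB targets and 2.81 for interferon-stimulated genes. At 1.5-fold, 5 of the 9 members at 1 FPKM were higher and 2 lower, against 1804 and 1523 of the 10671 genes tested. The medians of receptors, of adaptors and kinases, and of other inhibitors thus each changed sign under at least 1 setting. No paired analysis was possible because only 1 library stood for each group, which also meant that no library could be left out. Depth limits Birc3 and the targets below 1 FPKM.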

Other observations

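Outside the rule for named genes, and chosen after their values were seen, several genes close to the NF-kappaB loop had large ratios. Traf1, an adaptor gene that is itself an NF-kappaB target, had 192 reads in the control and 1137 in the knockdown library (log2 ratio 1.87). Csf2, a granulocyte and macrophage growth factor gene, had 7 and 145 reads (2.86), and the complement gene C3 had 59 and 645 reads (2.25). Gadd45b, a stress response gene, was at 14.6 FPKM in the control and 42.0 FPKM in the knockdown library (1.46). Map3k14, the kinase that starts the non-canonical branch, was at 3.72 FPKM and 7.09 FPKM (0.78). On log2 of (FPKM + 1) this was near Nfkb2 (0.72) and Relb (0.74). By reads, its ratio of 1.85 (1.65 to 2.07) lay above the interval of Nfkb2 (1.55 to 1.64) and overlapped that of Relb (1.53 to 1.78). The genes of the IkappaB kinase complex, Chuk (-0.53), Ikbkb (-0.13) and Ikbkg (-0.40), were lower instead. Tnip1 (0.69) and Tnip2 (0.98), which encode binding partners of Tnfaip3, were higher, while the deubiquitinase gene Cyld (-0.20) was lower. Nfkbib, another cytoplasmic IkappaB gene, was at 26.2 FPKM in the control and 29.8 FPKM in the knockdown library (0.18), unlike Nfkbia and Nfkbie in size. The log2 ratios of Bcl2l1 (-0.45), Sod2 (-0.09) and Cflar (0.05), also listed as targets, were smaller than that of Ier3 (2.89). These are values of 2 libraries with no replicate check.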
